A study of Homo sapiens with 4 samples.

Results

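The hyaluronan genes of Panc1, a line of human pancreatic cancer cells, were followed across 4 Affymetrix arrays: the enzymes that make hyaluronan (HAS2, HAS3) and its precursor (UGDH), the enzymes and the binding protein that take part in its breakdown (HYAL1, HYAL2, HYAL3, CEMIP) and its main receptor (CD44). The members were these 8 symbols, and every probe set that the platform annotation gives to 1 of them alone was used. That held for 22 probe sets of 7 genes, out of 19775 genes on the array. HYAL1 has no such probe set and was not analysed here, and 1 probe set shared by HAS3 and UTP4 was left out. The genes were selected on their signals and folds between conditions in these same arrays, so those values are given as a description.

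Total RNA came from cells treated for 24 hours with romidepsin plus tamoxifen, with romidepsin, or with tamoxifen, and from untreated cells, with 1 array for each of the 4 conditions. All cells were Panc1 grown in RPMI1640 with fetal bovine serum, so the results hold for 1 line in culture. Romidepsin inhibits histone deacetylases, and tamoxifen modulates the estrogen receptor. The doses used were not stated in the labels. There were no replicates, no test between conditions was possible, and no p-value is given. Precision is limited by there being 1 array per condition. Values are MAS5 signals on a linear scale. A floor of 66.4, the median signal of the non-control probe sets, replaced lower values in all folds, so a fold against an array at the floor is a lower bound. The words rose and fell are kept for differences of 2-fold or more between 2 arrays. In RNA from whole cultures, fewer cells of a kind and less RNA per cell cannot be told apart.

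Hyaluronan is a long sugar chain of the extracellular matrix built from alternating glucuronic acid and N-acetylglucosamine. UGDH makes the activated glucuronic acid, and hyaluronan synthases in the plasma membrane join both sugars and push the growing chain out of the cell. Hyaluronidases cut the chain, and CD44 at the cell surface binds it. In pancreatic cancer the polymer is known for accumulating in the stroma around the tumour.

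The upstream windows of 4 genes past 2-fold in the combination are printed here because HAS3, CD44 and UGDH were lower together while CEMIP was higher. HAS2, also lower, is not shown. They are the 250 bases before the start site in the RefSeq table (GRCh38.p14), which held a window for 7 of the 8 genes. Capitals mark the GC box GGGCGG, the E-box CACGTG, the AP-1 site TGANTCA and the TATA box TATAAA, searched on both strands. The windows are chr16:69107290-69107539 (plus strand) for HAS3, chr11:35138921-35139170 (plus strand) for CD44, chr4:39527440-39527689 (minus strand) for UGDH and chr15:80779120-80779369 (plus strand) for CEMIP. The HAS3 window lies inside the annotated gene, before one of its downstream starts.
HAS3: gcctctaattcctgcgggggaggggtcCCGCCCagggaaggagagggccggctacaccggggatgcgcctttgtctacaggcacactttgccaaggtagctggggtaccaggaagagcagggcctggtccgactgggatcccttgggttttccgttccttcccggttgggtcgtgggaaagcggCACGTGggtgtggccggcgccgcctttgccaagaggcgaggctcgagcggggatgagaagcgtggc
CD44: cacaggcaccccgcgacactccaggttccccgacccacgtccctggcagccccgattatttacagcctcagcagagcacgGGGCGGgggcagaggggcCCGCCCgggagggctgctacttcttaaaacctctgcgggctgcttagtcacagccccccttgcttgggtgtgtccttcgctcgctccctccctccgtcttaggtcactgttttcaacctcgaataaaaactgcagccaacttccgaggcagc
UGDH: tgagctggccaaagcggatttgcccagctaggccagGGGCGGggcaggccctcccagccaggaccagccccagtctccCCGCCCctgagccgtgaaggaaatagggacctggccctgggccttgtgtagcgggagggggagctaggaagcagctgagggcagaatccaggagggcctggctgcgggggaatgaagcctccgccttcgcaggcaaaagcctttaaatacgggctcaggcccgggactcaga
CEMIP: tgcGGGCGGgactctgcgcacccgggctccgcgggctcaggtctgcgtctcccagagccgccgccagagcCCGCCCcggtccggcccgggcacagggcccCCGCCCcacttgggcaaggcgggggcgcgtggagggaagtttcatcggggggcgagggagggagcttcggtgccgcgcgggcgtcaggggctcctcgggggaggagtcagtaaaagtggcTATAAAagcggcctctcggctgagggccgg

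GC boxes stood in all 4 printed windows: 1 in HAS3, 2 in CD44, 2 in UGDH and 3 in CEMIP. Of 35116 windows of the same length in the table, 42.6% hold a GC box. HAS3 also had an E-box 66 bases before the start, a motif found in 6.34% of windows. CEMIP had a TATA box 30 bases before the start, found in 10.7% of windows. None of the 4 held the AP-1 letters, which 6.57% of windows do. These matches describe letters only. GC content was 66.0% for HAS3, 62.4% for CD44, 66.0% for UGDH and 74.4% for CEMIP.

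Across the arrays as a whole, between 12159 and 13150 genes lay above the floor. The 18 hybridization spike-in probe sets averaged 0.82 times the untreated level on the combination array, 1.01 times on the romidepsin array and 0.78 times on the tamoxifen array. The 3′ to 5′ ratio of the actin control was 1.73 on the combination array, against 1.18 to 1.39 on the other arrays. As to the cell type, KRT8 and KRT18, keratins of simple epithelia, were well above the floor in every condition. KRT7, a further keratin of the ductal list, read 202 in the combination, 513 with romidepsin, 523 with tamoxifen and 780 in untreated cells. The keratin KRT19 of that list lay below the floor on all 4 arrays. The leukocyte marker PTPRC, the fibroblast markers COL1A2, COL3A1, LUM and PDGFRB and the endothelial marker CDH5 were also below it everywhere. In the same lists COL1A1 read between 6365 and 9773, DCN between 67.1 and 91.6, CD79A between 72.9 and 209 and PECAM1 between 110.0 and 136, and VWF was above the floor on both romidepsin arrays. Their part in the results was not tested. The summed signal of the 5 ductal markers was 16180 in the combination, 31323 with romidepsin, 23081 with tamoxifen and 35367 in untreated cells, most of it from KRT8 and KRT18. EPCAM, an epithelial adhesion molecule in that list, went the other way, at 475 in the combination, 395 with romidepsin, 71.9 with tamoxifen and 64.3 in untreated cells.

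Synthesis of the precursor comes first. UGDH, the dehydrogenase that turns UDP-glucose into UDP-glucuronic acid, had a signal of 1095 in the combination, 1158 with romidepsin, 8454 with tamoxifen and 5355 in untreated cells. Both arrays with romidepsin were low and lay close together, and tamoxifen alone gave the highest signal. UGDH, read by 1 probe set only, fell 4.63-fold with romidepsin and 4.89-fold in the combination against untreated cells. Tamoxifen alone was 1.58-fold higher than untreated, short of the 2-fold line. With arrays scaled to the spike-in controls that difference was 1.01 on the log2 scale, just past it. Because tamoxifen alone was high, the combination was 7.72-fold lower than tamoxifen.

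HAS3, a hyaluronan synthase, had the steepest fall of the members over untreated cells on its brighter probe set. With a floor at the 75th percentile CD44 was the steeper in the combination, at -3.56 against -3.15 for HAS3, and with the median over probe sets it was so with romidepsin too. Its brighter probe set read 223 in the combination, 277 with romidepsin, 3577 with tamoxifen and 3616 in untreated cells. The conditions formed 2 pairs, with tamoxifen making little difference within each. HAS3 was 16.2-fold lower in the combination than in untreated cells, and close to that against tamoxifen, with a log2 fold of -4.00. In romidepsin over untreated its log2 fold was -3.71, and only 6 of 13619 measured genes, HAS3 among them, were as low or lower. A further probe set of HAS3 lay below the floor on all 4 arrays, between 2.77 and 14.3, and gives no order.

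HAS2, the synthase most often linked to matrix-rich mesenchymal tissue, was much dimmer. Its brighter probe set read 51.5 in the combination, which is below the floor, 68.4 with romidepsin, 207 with tamoxifen and 298 in untreated cells. Both arrays with romidepsin were at or next to the floor. HAS2 was 4.36-fold lower with romidepsin and at least 4.50-fold lower in the combination than in untreated cells. With tamoxifen alone it was 1.44-fold lower. The other HAS2 probe set read 79.5 in the combination, 59.3 with romidepsin, 175 with tamoxifen and 148 in untreated cells. It kept both romidepsin arrays below the other pair but differed in size. Its combination signal was 1.87-fold lower than untreated, under 2-fold, and its romidepsin signal at least 2.23-fold lower. It also put tamoxifen above untreated cells, where the brighter one put it below.

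**Figure D1:**
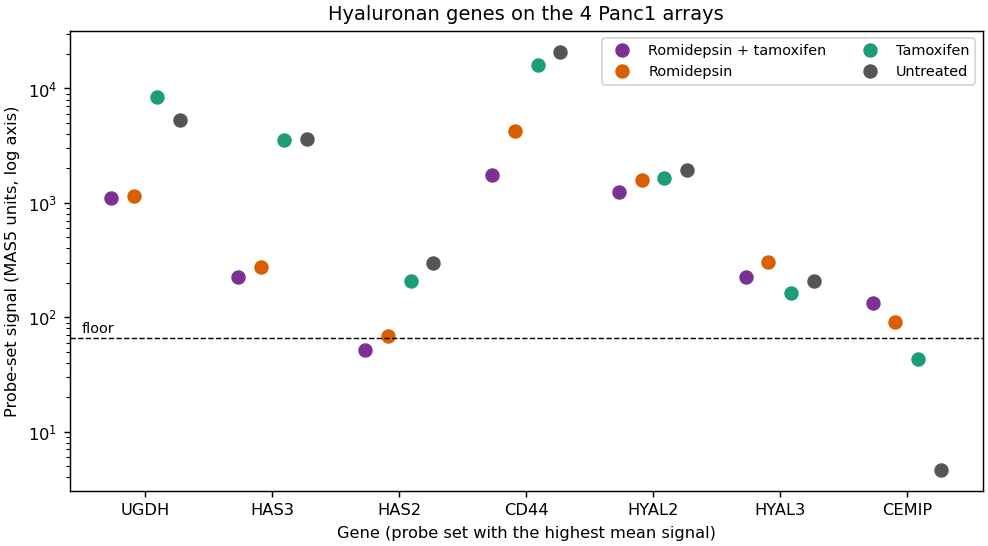
Signal of each measured hyaluronan gene (log axis, MAS5 units) in the combination, romidepsin, tamoxifen and untreated arrays, 1 point per array, with the floor of 66.4 dashed. UGDH, HAS3, HAS2 and CD44 have both romidepsin-containing arrays below the other pair, HYAL2 and HYAL3 stay within 2-fold, and CEMIP is above the floor only on the romidepsin-containing arrays.

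CD44, the cell-surface receptor that binds hyaluronan through its link domain, was read by 13 probe sets, of which 8 lay above the floor on all 4 arrays. The brightest read 1761 in the combination, 4218 with romidepsin, 16154 with tamoxifen and 20786 in untreated cells. On the MAS5 signals the order was the same on all 8 probe sets: the combination lowest, then romidepsin, then tamoxifen, then untreated cells. With romidepsin the 8 were 3.52-fold to 6.90-fold lower than untreated, and in the combination 6.003-fold to 11.8-fold lower. All 8 fell in both comparisons. They were 8 of the 9 CD44 probe sets above the floor on at least 1 of the 2 arrays compared. The other was at least 1.96-fold lower than untreated in both. Among all probe sets measured in that way, 8.51% fell with romidepsin and 13.1% in the combination. The 8 share their RNA and their arrays and are not replicates.

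Tamoxifen alone left all 8 of these CD44 probe sets below untreated cells, but none by 2-fold, where 1.27% of measured probe sets fell. With arrays scaled to the spike-in controls the brightest was at only -0.0079 on the log2 scale there, against -0.36. The size of this drop thus depended on the scaling. Added to romidepsin, tamoxifen was followed by a lower signal on all 8, by 1.32-fold to 2.39-fold. Only the brightest passed 2-fold, where 2.19% of measured probe sets fell. The median over the 8 was 1.67-fold. CD44 is thus counted as falling in the combination against romidepsin on its brightest probe set alone, and with arrays scaled to the spike-in controls that value was -0.95 on the log2 scale, under 2-fold. The summed ductal markers were also lower in the combination than with romidepsin, and the actin ratio was higher, while EPCAM was 1.20-fold higher; their part in this difference was not tested. One dim probe set stood apart. It read 29.5 in the combination and 18.5 with romidepsin, both below the floor, 201 with tamoxifen and 130 in untreated cells, and so put tamoxifen above untreated. The remaining 4 were below the floor everywhere.

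**Figure D2:**
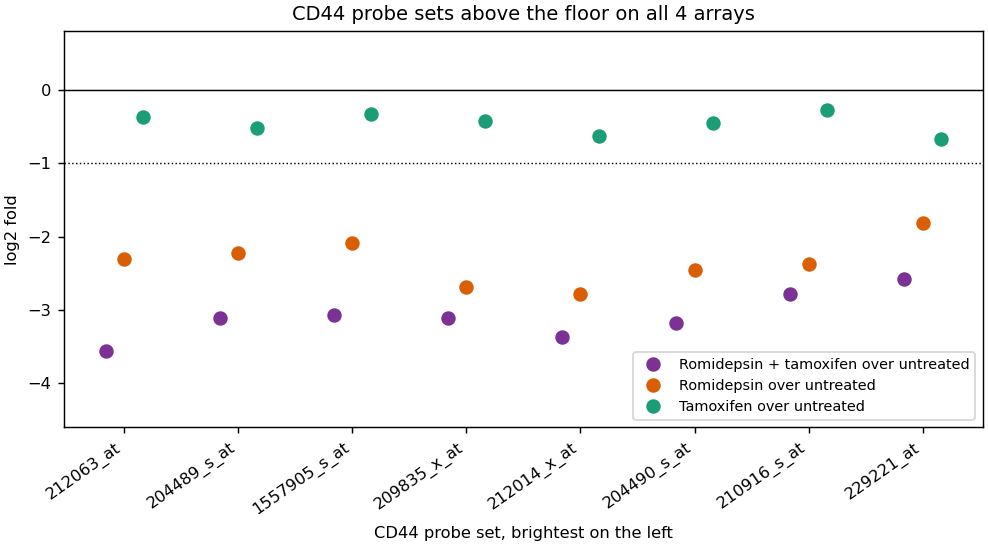
Log2 fold over untreated cells of the 8 CD44 probe sets above the floor on all arrays, with the dotted line at 2-fold lower. On every probe set the combination lies below romidepsin, and tamoxifen lies between 0 and the dotted line.

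Breakdown genes did not follow the synthases. HYAL2 and HYAL3 had 1 probe set each, and its suffix marks several possible transcripts, as do those of both CEMIP probe sets. Without such probe sets none of these members was left to compare. HYAL2, a membrane-anchored hyaluronidase that cuts long chains, read 1246 in the combination, 1589 with romidepsin, 1637 with tamoxifen and 1941 in untreated cells. The arrays lay within 1.56-fold of each other. HYAL3, a weakly active member of the family, read 225 in the combination, 304 with romidepsin, 164 with tamoxifen and 206 in untreated cells. Romidepsin gave the highest HYAL3 signal, 1.48-fold above untreated, and tamoxifen the lowest. Neither gene rose or fell in any of the 5 comparisons. The sign of HYAL3 in the combination over untreated, 0.13 on the log2 scale, turned to -0.17 with arrays centred on their medians and to -0.16 with quantile normalization. With tamoxifen over untreated, -0.33 for HYAL3 turned to 0.02 with spike-in scaling.

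CEMIP, a hyaluronan-binding protein needed for depolymerisation in skin fibroblasts, was the only member past 2-fold higher. Its brighter probe set read 134 in the combination, 91.2 with romidepsin, 43.0 with tamoxifen and 4.64 in untreated cells. The last 2 lie below the floor and have no order. The combination was at least 2.03-fold higher than untreated cells and than tamoxifen, barely past the line, and romidepsin at least 1.37-fold higher than untreated. Centring the arrays on their medians gave 0.88 on the log2 scale for the combination over untreated and over tamoxifen, and quantile normalization gave 0.86 for both, all under 2-fold. A floor at the 25th percentile gave 2.80 over untreated and 1.65 over tamoxifen. The other CEMIP probe set stayed between 4.19 and 7.41, below the floor throughout.

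In romidepsin over untreated, 4 of the 7 measured members fell (UGDH, HAS3, HAS2 and CD44) and 0 rose, where 9.27% of 13619 measured genes fell and 14.3% rose. With a floor at the 25th percentile CEMIP also passed 2-fold there, at 2.24 on the log2 scale, and with a pseudocount at 2.38. The members' median log2 fold was -2.13, against 0.06 over all measured genes. In the combination over untreated the same 4 fell and CEMIP rose, where 14.4% of genes fell and 19.8% rose, with medians of -2.17 for the members and 0.09 for all genes. In the combination over tamoxifen those 4 fell and CEMIP rose again, against 11.8% and 14.8% of genes, and the medians were -1.64 and 0.05. These 3 comparisons share arrays and are not separate evidence. Since the members were chosen with these contrasts in view, their shares describe the list only.

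Tamoxifen alone moved 0 of 6 measured members past 2-fold, where 1.07% of genes fell and 3.70% rose. The members' median was -0.29, against 0.01 over all genes. In the combination over romidepsin 1 of 7 fell, CD44, where 2.27% of genes fell and 4.07% rose, and the median was -0.31, against -0.03. In genes with several probe sets above the floor, log2 folds differed between 2 probe sets by a median of 0.24 to 0.32 over the 5 comparisons, with a 95th percentile of 0.88 to 1.25. The falls of UGDH, HAS3, HAS2 and CD44 with romidepsin over untreated were larger than the 95th percentile. The tamoxifen differences over untreated lay under it. Those of UGDH (0.66), HAS2 (-0.53), CD44 (-0.36), HYAL3 (-0.33) and HYAL2 (-0.25) were larger than the median of 0.24 there. They depended on the scaling. With arrays scaled to the spike-in controls HAS2 (-0.17), CD44 (-0.0079), HYAL3 (0.02) and HYAL2 (0.11) lay under that median. HAS3 (0.34) was then above the median, and UGDH (1.01) was past the 95th percentile of 0.90. In the combination over romidepsin CD44, at -1.26 on its brightest probe set, was past the 95th percentile of 0.88. The spread between probe sets is technical and leaves out variation between cultures.

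**Figure D3:**
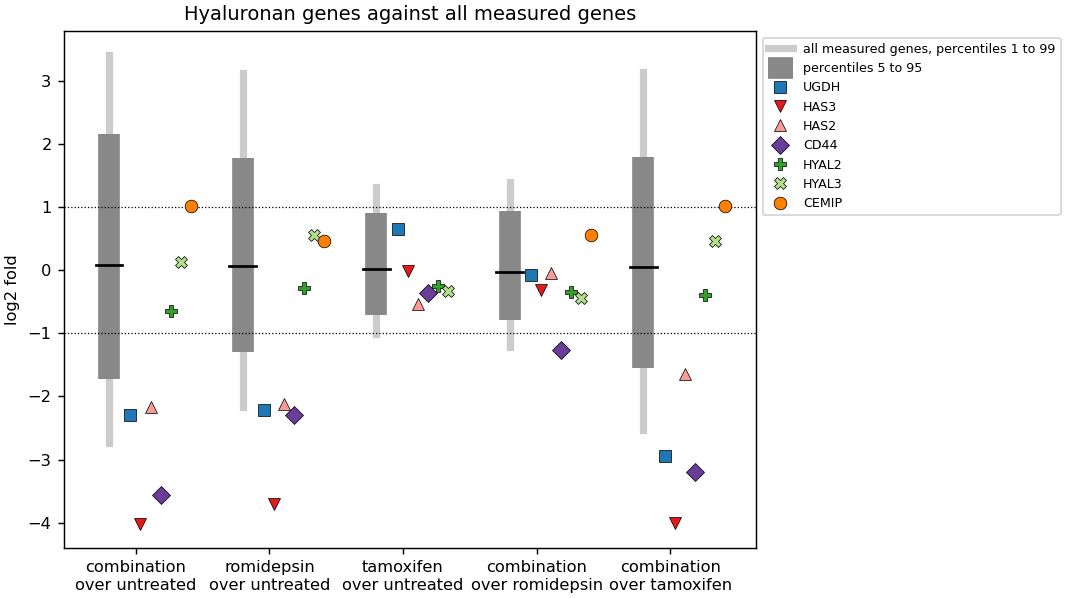
Log2 folds of the hyaluronan genes in the 5 comparisons, beside the range of all measured genes (thin bar, percentiles 1 to 99; thick bar, 5 to 95; black line, median), with dotted lines at 2-fold. UGDH, HAS3, HAS2 and CD44 lie below the 5th percentile in the 3 comparisons that differ by romidepsin, and in the combination over romidepsin CD44 is the one member below it.

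The combination was also set against the sum of the single-drug log2 folds. For CD44, on its brightest probe set, the combination was at -3.56 and the sum at -2.66, a departure of -0.90; 6.26% of 14414 genes departed as far in either direction. The other CD44 probe sets gave smaller departures, and over the 8 the range was -0.90 to 0.05 with a median of -0.19. UGDH departed by -0.74, as far as 10.8% of genes did: it was at -2.29 in the combination, while romidepsin alone gave -2.21 and tamoxifen alone 0.66. HAS3 departed by -0.30, HYAL2 and HYAL3 by -0.10 each. The values for HAS2 (0.49) and CEMIP (0.56) rest on arrays at the floor, and that of CEMIP turned to -0.59 with a floor at the 25th percentile and to -1.03 with a pseudocount. With 1 array per condition a departure cannot be told from noise.

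The genes whose 3 log2 folds over untreated (combination, romidepsin, tamoxifen) lay closest to each member were sought among 11058 genes above the floor on all arrays, by Euclidean distance. Nearest to HAS3 were EMP1 (distance 0.28), MALL (0.29) and ETS2 (0.41). The brightest probe sets of EMP1 and ETS2 were used, and 1 other probe set gave -0.07 for EMP1 and 1 gave -0.21 for ETS2 in the combination over untreated. Nearest to CD44 were HOXB5 (0.27), EMP3 (0.28) and MPDU1 (0.29). Nearest to UGDH were SLC38A1 (0.19), SOCS6 (0.26) and SNX9 (0.30), which were likewise higher with tamoxifen alone, by 0.51, 0.74 and 0.43 on the log2 scale. A further probe set of SOCS6 gave -0.27 there. For SLC38A1 a further probe set gave only -0.47 in the combination and -0.32 with romidepsin over untreated. HAS2 lay closest to DAZAP1 (0.20), TOR4A (0.21) and TRIM47 (0.21), and CEMIP to ZNF788P (0.04), HECTD4 (0.09) and RINT1 (0.10), both with member values at the floor. The 3 folds share the untreated array.

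On their brightest probe sets, 0 of 8 measured genes that lead to the 2 activated sugars rose or fell with romidepsin. Over all measured genes 14.3% rose and 9.27% fell there. The median log2 fold of the 8 was -0.0041, against 0.06 over all genes. HK2, a hexokinase, depended on the probe set. Its brightest gave 0.40 on the log2 scale with romidepsin and 0.92 in the combination, while 2 of its 3 measured probe sets were more than 2-fold lower in both, down to -2.42 with romidepsin and -2.72 in the combination. UGP2, the enzyme just before UGDH, read 7351 in the combination, 5339 with romidepsin, 7696 with tamoxifen and 4821 in untreated cells, with tamoxifen and the combination at the upper end. In the combination over untreated 2 of the 8 fell and 0 rose, where 14.4% of all measured genes fell and 19.8% rose. GPI, the isomerase that makes fructose 6-phosphate, was 3.001-fold lower and PGM1, which interconverts glucose phosphates, 2.23-fold lower. Set against romidepsin alone, the combination was 2.04-fold lower for GPI.

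Among other enzymes of breakdown, CEMIP2, a membrane protein related to CEMIP, read 780 in the combination, 684 with romidepsin, 223 with tamoxifen and 216 in untreated cells. It rose 3.16-fold with romidepsin and 3.61-fold in the combination, and both romidepsin arrays lay above the other pair. HYAL4 and SPAM1 were below the floor on every array. Of 2 measured lysosomal enzymes that trim the fragments, GUSB and HEXA, 0 rose or fell against untreated cells. With romidepsin 14.3% of all measured genes rose and 9.27% fell. The shares were 19.8% and 14.4% in the combination, and 3.70% and 1.07% with tamoxifen. HEXA came close in the combination, 1.97-fold lower than untreated on its brightest probe set, while its other measured probe sets gave up to 0.52 on the log2 scale. The combination was 2.18-fold lower than tamoxifen for HEXA, but its other measured probe sets went the opposite way, up to 0.44 on the log2 scale.

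Of the other hyaluronan receptors, 5 of 7 were measured in romidepsin over untreated, where HMMR fell and 0 rose. Over all measured genes 9.27% fell and 14.3% rose there. HMMR, which binds hyaluronan and also mitotic spindle microtubules, read 772 in the combination, 673 with romidepsin, 3758 with tamoxifen and 2241 in untreated cells. It was 3.33-fold lower with romidepsin than in untreated cells, 2.90-fold lower in the combination, and 1.68-fold higher with tamoxifen. As for UGDH, both romidepsin arrays were low and tamoxifen alone was highest. LAYN and STAB1 stayed within 2-fold. The endothelial receptor LYVE1 was at or within 1.03-fold of the floor.

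Proteins that bind or cross-link hyaluronan in the matrix went both ways. Of 17 listed, 12 were measured with romidepsin, of which 4 rose and 2 fell, where 14.3% of all measured genes rose and 9.27% fell. The median log2 fold was 0.02, against 0.06 over all genes. ITIH5, of the family of heavy chains that attach to hyaluronan, read 620 in the combination and 447 with romidepsin, and was below the floor with tamoxifen and in untreated cells. It rose at least 6.74-fold with romidepsin and at least 9.35-fold in the combination. Its other probe set gave only 0.34 and 0.76 on the log2 scale. The proteoglycans NCAN (at least 3.13-fold) and VCAN (at least 2.56-fold) also rose with romidepsin from below the floor, and genes below the floor in untreated cells could only be measured if they were higher with treatment.

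PTX3, a pentraxin of hyaluronan-rich matrix, read 174 in the combination, 783 with romidepsin, 127 with tamoxifen and 191 in untreated cells. Romidepsin alone stood apart from the other conditions, 4.10-fold above untreated, and the combination was 4.49-fold lower than romidepsin. The link protein HAPLN3 ran the other way, at 380 in the combination, 792 with romidepsin, 1288 with tamoxifen and 2420 in untreated cells. Its order over the arrays was that of CD44. HAPLN3 fell 3.06-fold with romidepsin and 6.37-fold in the combination, and BCAN fell 2.66-fold with romidepsin on 1 of its 2 measured probe sets. With tamoxifen alone 0 of 10 measured matrix genes rose or fell, where 3.70% of all measured genes rose and 1.07% fell.

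**Figure D4:**
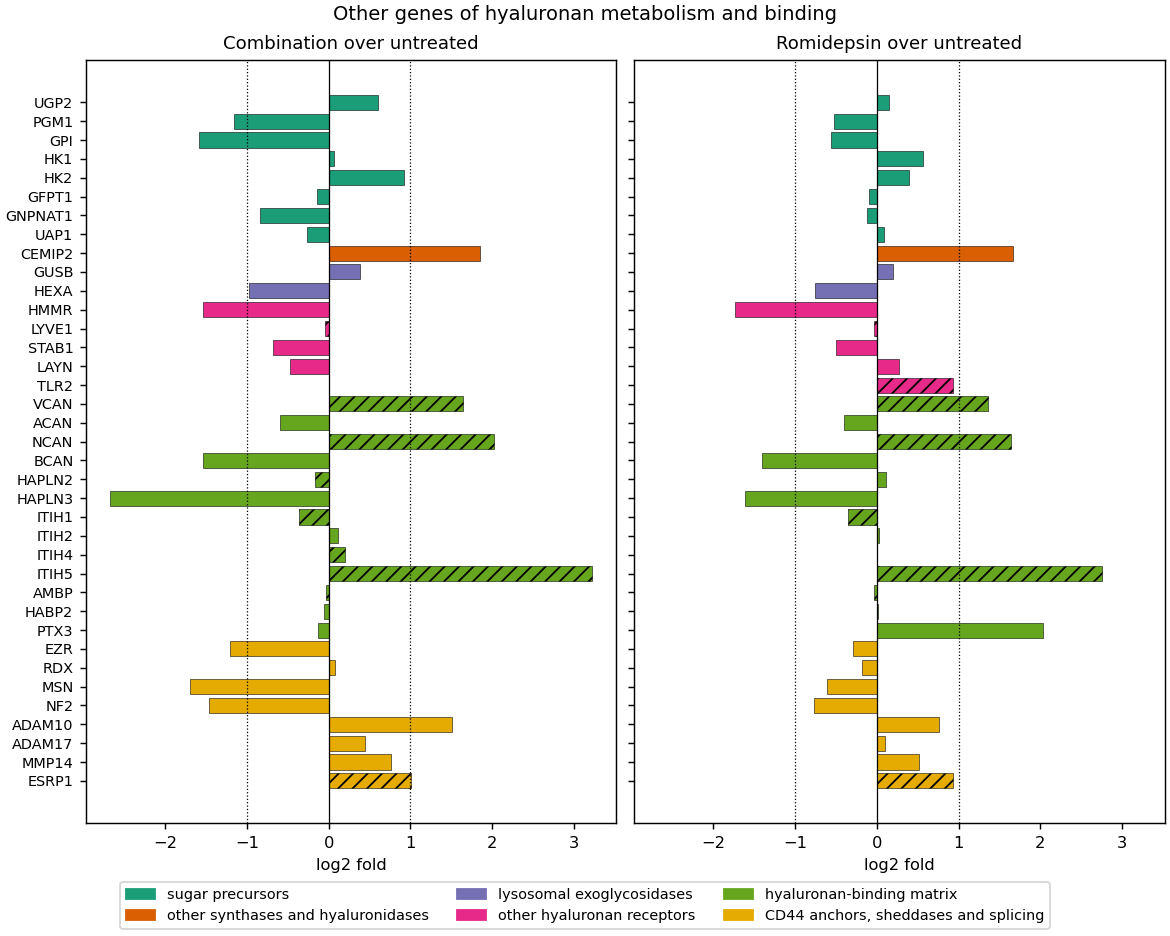
Log2 folds over untreated cells in the combination (left) and with romidepsin (right) for the other measured genes of hyaluronan metabolism, binding and CD44 handling, coloured by list; hatched bars have 1 array at the floor and dotted lines mark 2-fold. Matrix-binding genes extend both ways, and MSN, NF2, EZR and ADAM10 pass 2-fold in the left panel and not in the right. Each bar is the gene's brightest probe set, and other probe sets of HK2, ADAM10 and NF2 pass 2-fold with romidepsin.

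Of 8 measured genes whose proteins anchor, shed or splice CD44, 0 rose or fell with romidepsin on the brightest probe set. Over all measured genes 14.3% rose and 9.27% fell there. The median of the 8 was -0.04, against 0.06 over all genes. Other probe sets differed: ADAM10 was past 2-fold higher on 2 of 3, up to 1.21 on the log2 scale, and NF2 past 2-fold lower on 2 of 7, down to -1.24. In the combination over untreated 3 of the 8 fell and 2 rose, where 14.4% of all measured genes fell and 19.8% rose. Moesin (MSN), which ties the CD44 tail to actin, read 3574 in the combination, 7590 with romidepsin, 8081 with tamoxifen and 11534 in untreated cells, and was 3.23-fold lower in the combination than untreated. Its relative EZR was 2.31-fold lower and NF2, which encodes merlin, 2.75-fold lower, while the third relative RDX read 7439 in the combination and 7062 in untreated cells. ADAM10, a protease that sheds CD44, read 10024 in the combination, 5963 with romidepsin, 6319 with tamoxifen and 3530 in untreated cells, 2.84-fold higher in the combination than untreated. ESRP1, a splicing factor that favours CD44 variant exons, was at least 2.005-fold higher in the combination. The protease MMP14 was 2.49-fold higher with tamoxifen alone on its 1 measured probe set, at 185 against 74.1 in untreated cells, near the floor. On brightest probe sets it was the 1 call among 7 measured genes there, where 3.70% of all measured genes rose and 1.07% fell. Other probe sets also passed 2-fold with tamoxifen alone. ADAM10 was higher on 2 of 3, up to 1.42 on the log2 scale. NF2 was lower on 2 of 7 and EZR on 1 of 5, both down to -1.15.

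HYAL3, HYAL1 and HYAL2 lie together on chromosome 3, so the genes around them were listed too. Of 6 measured neighbours, 1 rose and 2 fell with romidepsin, where 14.3% of all measured genes rose and 9.27% fell. Their median log2 fold was 0.34, against 0.06. IFRD2, next to HYAL3, read 1301 in the combination, 1833 with romidepsin, 3488 with tamoxifen and 6705 in untreated cells, and was 3.66-fold lower with romidepsin than untreated. RASSF1, a tumour suppressor on the HYAL2 side, was 2.57-fold lower with romidepsin and 2.04-fold lower with tamoxifen. The tamoxifen value rests on 1 probe set and was barely past the line, where 1.07% of all measured genes fell. Scaling to the spike-in controls moved the median of all genes there from 0.01 to 0.33 on the log2 scale. ZMYND10 was 2.30-fold higher with romidepsin on 1 of its 2 measured probe sets, and the other gave 0.79 on the log2 scale, under 2-fold. HYAL2 and HYAL3, between these genes, stayed within 2-fold in the same comparisons.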

How the data were processed

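Total RNA of 4 Panc1 samples was hybridised to Affymetrix arrays, per the labels' protocols. The deposited intensities, 1 per probe set and linear, came from the authors' MAS5 run, per the submitters' processing notes, which name no version. The mean signal after trimming 2% at each end was 500.1 on all 4 arrays, so each array was scaled on its own. Of 54675 probe sets, 62 are controls and 41091 others name 1 gene, and Entrez IDs matched 41037 of these to RefSeq (GRCh38.p14).

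Each of 19775 genes took the values of its brightest probe set (mean log2 signal). Signals were floored at 66.4, and a gene was measured if 1 of 2 arrays lay above the floor. Genes named are the members, list genes past 2-fold (the 4 largest per list and comparison) and the 3 nearest genes; BCAN, and list genes under 2-fold such as UGP2 and RDX, were named after their values were seen. The members and lists were chosen with earlier results of these data known. With 1 array per condition no test was made. Alternatives varied the floor, scaling, probe-set choice and threshold. Calculations used Python 3.11.15, numpy 2.4.6, pandas 2.3.3, scipy 1.17.1 and matplotlib 3.10.9, and were tested on simulated data.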

Additional observations from a re-analysis of the deposited data

How the results depend on the processing

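The falls of UGDH, HAS3 and CD44 in the 3 comparisons that differ by romidepsin stayed past 2-fold under every alternative run, and those of HAS2 under all but the floor at the 75th percentile, which leaves HAS2 unmeasured. No fold past 2-fold changed its sign. HAS3 ranged from -3.90 to -1.85 (log2) with romidepsin; the value of -1.85 is a median that takes in a probe set below the floor. With that higher floor, 3 members passed 2-fold, against 5 with the floor used, in the combination over untreated and over tamoxifen. With tamoxifen alone 1 member, against 0, passed with the floor at the 25th percentile (CEMIP), with spike-in scaling (UGDH) and at 1.5-fold (UGDH). In the combination over romidepsin 0 members passed, against 1 (CD44), with spike-in scaling and with the median over probe sets. The median departure from additive log2 folds was -0.10, and -0.52 without probe sets whose suffix marks several possible transcripts, which leaves 4 members. Of 236 single member folds under alternatives, 35 moved by more than the difference between probe sets. Scaling to the spike-in controls put the median of all genes at 0.34 in the combination and 0.33 with tamoxifen over untreated, and centring on medians put it at -0.17 and -0.13. HAS2 and CEMIP lie near the floor, which limits their folds. No paired analysis was possible because each condition has 1 array.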
